A study of Papio anubis and Macaca mulatta with 6 samples.

Results

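Tight junctions seal neighbouring cells to one another, and gap junctions connect their interiors. The genes described here were 9 genes of these junctions, chosen by symbol: the claudins CLDN1, CLDN3, CLDN5 and CLDN11, the strand protein occludin (OCLN), the scaffold TJP1 (ZO-1), the adhesion molecule F11R (JAM-A) and the connexins GJA1 (connexin 43) and GJA4 (connexin 37). All 9 were listed among 34178 genes in the baboon and among 21356 genes in the rhesus monkey. Their unique molecular identifiers (UMIs, each standing for 1 captured RNA molecule) were summed over Sertoli, endothelial, stromal and germ cells of the prepubertal testis, each species alone, and none of the 9 was used to define those classes.

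The data were 10x Genomics 3′ single-cell libraries of unselected testis cells from 4 animals, 2 olive baboons (Papio anubis) and 2 rhesus monkeys (Macaca mulatta). No treatment was named for them, and their testes were obtained at necropsy, after euthanasia for another purpose. Baboon 1 and rhesus 2 each gave 2 libraries and the other animals 1 each, so the series held 6 libraries and each species 2 replicates. The study's methods gave newborn and 26 months for the baboons and 15 and 20 months for the rhesus monkeys, the series description gave these pairs to the other species, and no label tied an age to an animal, so animals were not compared by age. Baboon 2 was captured with version 3 of the 10x chemistry and the others with version 2, so chemistry and animal cannot be told apart in the baboon. A short collagenase digestion followed by a wash was used to remove interstitial cells, so the share of a class among the cells was not its share of the tissue.

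In the adult testis, tight junctions between neighbouring Sertoli cells form the blood-testis barrier, which divides the seminiferous epithelium into a basal and an adluminal compartment. The barrier is assembled around puberty, when the first germ cells enter meiosis, and CLDN11 is the claudin best known for it. Sertoli cells are also coupled to each other and to germ cells through GJA1 channels, whereas CLDN5 and GJA4 are known from the endothelium of blood vessels.

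Libraries held between 16875294 and 49803025 UMIs, of which 57.7% to 87.4% lay in cells. In all, 23057 baboon and 26473 rhesus cells were kept, with a median per library of 1445 to 2743 UMIs, and 86.4% and 84.1% of them met the marker rule of 1 of the 4 classes. The baboon classes held 14828 Sertoli, 267 endothelial, 4627 stromal and 198 germ cells. The rhesus classes held 7073 Sertoli, 594 endothelial, 14295 stromal and 292 germ cells, but only 42 of the endothelial cells came from rhesus 1 and only 37 of the germ cells from rhesus 2. Of genes outside the marker lists, the endothelial phosphatase PTPRB stood at 242 CPM (UMIs of a gene per 1000000 UMIs of a class) in baboon and 25.7 CPM in rhesus endothelial cells and at no more than 4.5 CPM in the other classes. CD34 stood at 1474 CPM in rhesus endothelial and 146 CPM in rhesus stromal cells and had no UMI in the baboon, while FGFR3 stood at 49.4 CPM in baboon germ cells and had no UMI in rhesus germ cells. Of the Sertoli genes outside the lists, GATA4 stood at 276 CPM in baboon Sertoli and at most 105 CPM in the other classes, and at 14.4 and at most 9.72 CPM in the rhesus monkey. WT1 did not separate Sertoli from endothelial cells, at 160 and 148 CPM in the baboon and 9.05 and 14.4 CPM in the rhesus monkey. Of the cells left without a class, 411 of 2919 in the baboon and 999 of 3557 in the rhesus monkey lay near the limits of the rule. The libraries of baboon 1 shared 67 cell barcodes where 72.3 would be shared by chance, those of rhesus 2 shared 109 where 79.3 would, and those of rhesus 2 shared 123 and 121 with that of rhesus 1 where 121 and 111 would.

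Levels are given as CPM with exact 95% Poisson intervals that cover counting error only. They were compared between classes within a gene and not between genes. Differences were tested with edgeR on the 8 sums of a species (4 classes, 2 animals) and are given as log2 fold changes ± SE, with p adjusted over 12860 baboon or 12335 rhesus genes. CLDN1 in both species and OCLN in the rhesus monkey did not pass edgeR's filter. The filter asks for a minimum level in some of the sums and also for a small total over them. A larger total alone was not enough, since baboon CLDN1 had 348 UMIs over the 4 classes and baboon OCLN, which passed, 158. This left 8 members for the baboon and 7 for the rhesus monkey. A gene that passes the filter through the class where it is high had to differ between classes, so counts of called genes describe those tested and not the whole list. In the baboon CLDN5 and GJA4 passed it through endothelial cells alone and CLDN3 through Sertoli cells alone. Their adjusted p for those classes describe a difference that the filter favoured and are not separate support.

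**Figure D1:**
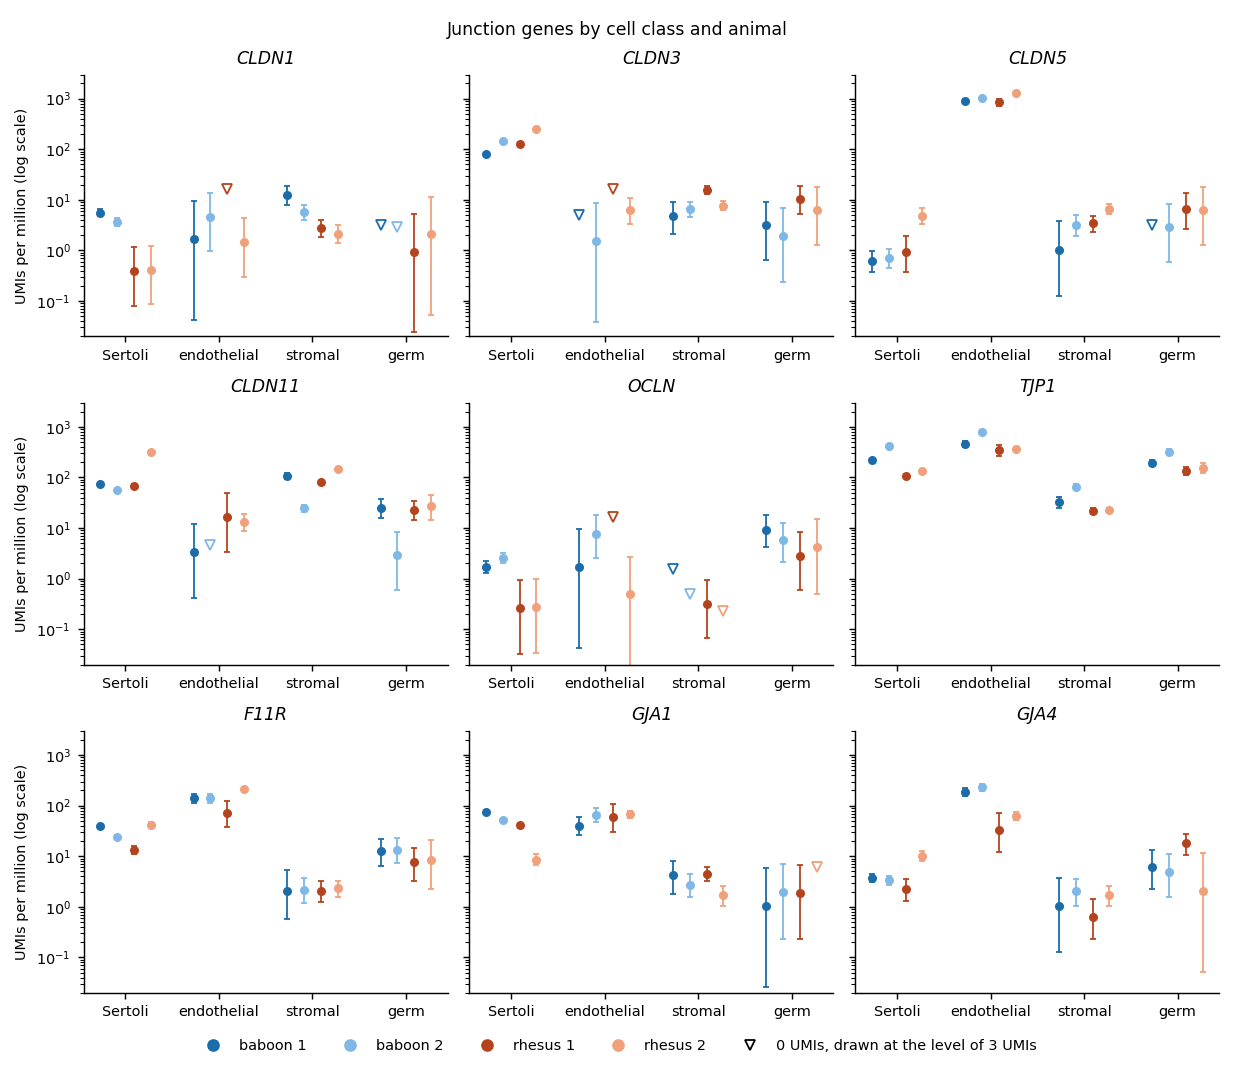
Level of each of the 9 genes (CPM, log axis) in Sertoli, endothelial, stromal and germ cells of each animal, with exact 95% Poisson intervals as bars and open triangles for classes with 0 UMIs, drawn at the level of 3 UMIs. CLDN5 stood between 841 and 1272 CPM in endothelial cells of the 4 animals and below 7 CPM in every other class, CLDN3 was highest in Sertoli cells, and CLDN11 was high in Sertoli and stromal cells.

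Before the values, the promoter sequences of CLDN3, CLDN5 and CLDN11 are shown, since the results turn on the different distributions of these 3 claudins. Each is the 250 bases before the annotated start of the rhesus gene, written 5′ to 3′ on the strand of the gene, from the RefSeq annotation of Mmul_10. Capitals mark the ETS core CCGGAA, which reads TTCCGG on the other strand and which ETS factors bind.
CLDN3 (chr3:46129199-46129448, minus strand): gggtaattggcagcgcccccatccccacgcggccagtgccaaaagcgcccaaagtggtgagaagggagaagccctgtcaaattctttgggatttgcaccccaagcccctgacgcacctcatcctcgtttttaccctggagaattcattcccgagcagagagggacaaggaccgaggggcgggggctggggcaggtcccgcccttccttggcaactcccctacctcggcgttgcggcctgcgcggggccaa
CLDN5 (chr10:33122631-33122880, plus strand): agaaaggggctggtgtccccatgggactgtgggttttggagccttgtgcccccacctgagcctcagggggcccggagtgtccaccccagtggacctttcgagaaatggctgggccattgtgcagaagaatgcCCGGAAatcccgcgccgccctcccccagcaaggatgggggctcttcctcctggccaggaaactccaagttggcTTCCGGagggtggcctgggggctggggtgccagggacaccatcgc
CLDN11 (chr2:75339210-75339459, plus strand): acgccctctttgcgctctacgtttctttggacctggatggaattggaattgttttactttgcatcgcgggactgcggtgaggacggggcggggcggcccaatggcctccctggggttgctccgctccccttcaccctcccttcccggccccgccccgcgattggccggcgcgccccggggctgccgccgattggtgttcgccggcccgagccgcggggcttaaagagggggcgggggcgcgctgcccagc

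The ETS core stood 2 times in the window of CLDN5, 1 time in that of OCLN and in none of the windows of the other 7 members, while 12.8% of 20782 rhesus promoters of the same length held it. Neither the SOX core ACAAAG (on the other strand CTTTGT), present in 12.6% of all promoters, nor the GATA core AGATAA (on the other strand TTATCT), present in 8.40%, stood in the window of any of the 9 members. The windows differed in base composition, from 34.0% G and C at GJA1 to 85.2% at TJP1, with 63.2%, 65.2% and 70.0% at CLDN3, CLDN5 and CLDN11. The motifs overlap no other motif searched, and a match in these letters describes the window only.

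CLDN3, a claudin of many epithelia, was higher in Sertoli cells than in each of the other classes, in both species. The gene lies at chr4:136104155-136105739 in the baboon build Panubis1.0 and, with a single exon, at chr3:46128137-46129198 in the rhesus build Mmul_10. It stood at 82.1 and 146 CPM in Sertoli cells of baboon 1 and baboon 2 and at 130 and 254 CPM in those of rhesus 1 and rhesus 2. In stromal cells it stood at 4.69 and 6.57 CPM in the baboons and at 15.6 and 7.70 CPM in the rhesus monkeys. Germ cells held 3.11 and 1.92 CPM in the baboons and 10.4 and 6.21 CPM in the rhesus monkeys, and endothelial cells 0 and 1.55 CPM and 0 and 6.37 CPM. Sertoli cells were the highest class in all 4 animals, and the Sertoli values did not overlap those of any other class in either species, whereas the intervals of neighbouring classes below them overlapped. Against stromal cells CLDN3 was higher in Sertoli cells by 4.20 ± 0.41 in the baboon (adjusted p = 2.5e-04) and by 3.86 ± 0.50 in the rhesus monkey (adjusted p = 0.0011). Against germ cells the differences were 5.97 ± 0.51 (adjusted p = 1.1e-04) and 4.64 ± 0.59 (adjusted p = 9.7e-04). Baboon endothelial cells held a single CLDN3 UMI, so the ratio of 144 to Sertoli cells had a counting interval of 25.9 to 5703, with an adjusted p of 1.5e-04. In the rhesus monkey the difference from endothelial cells was 5.03 ± 0.65 (adjusted p = 6.9e-04). Baboon CLDN3 passed the filter through Sertoli cells alone, so its adjusted p add no support beyond the levels. When each cell was thinned to 1000 UMIs, 8.16% and 13.01% of Sertoli cells of the baboons and 11.5% and 21.6% of those of the rhesus monkeys held a CLDN3 UMI.

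CLDN11, also called oligodendrocyte-specific protein and the main claudin of the adult Sertoli barrier, did not separate Sertoli from stromal cells. It lies at chr2:120581266-120596748 in Panubis1.0 and at chr2:75339460-75354307 in Mmul_10, where its longest transcript has 3 exons. In Sertoli cells it stood at 73.5 (70.4 to 76.7) CPM in baboon 1, 57.8 (55.3 to 60.4) CPM in baboon 2, 67.9 (62.1 to 74.0) CPM in rhesus 1 and 312 (299 to 325) CPM in rhesus 2. In stromal cells of the same animals it stood at 106 (91.7 to 121), 24.4 (20.6 to 28.7), 80.8 (75.2 to 86.8) and 150 (143 to 157) CPM. Stromal cells were the higher class in baboon 1 and rhesus 1 and Sertoli cells in baboon 2 and rhesus 2, each time by more than the counting intervals, and over animals the values of the classes overlapped in both species. The difference between Sertoli and stromal cells was -0.06 ± 0.79 in the baboon (adjusted p = 0.97) and 0.49 ± 0.48 in the rhesus monkey (adjusted p = 0.56). The sign of the baboon value changed with the scaling and with the animal as a block, which gave 0.29 (adjusted p = 0.48).

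In each animal both of these classes stood above the others in CLDN11, although over the animals the stromal and germ values of the baboons overlapped, at 24.4 CPM for the lower stromal and 24.9 CPM for the higher germ value. Endothelial cells held 3.37 and 0 CPM in the baboons and 16.6 and 13.2 CPM in the rhesus monkeys, and germ cells 24.9, 2.89, 22.6 and 26.9 CPM. Sertoli cells exceeded germ cells by 2.75 ± 0.93 in the baboon (adjusted p = 0.038) and by 3.09 ± 0.57 in the rhesus monkey (adjusted p = 0.0037), and endothelial cells of the rhesus monkey by 3.59 ± 0.63 (adjusted p = 0.0040). The baboon call against germ cells was lost with library sizes alone as scaling (adjusted p = 0.074) and under a stricter marker rule (adjusted p = 0.050). Baboon endothelial cells held 2 CLDN11 UMIs, which gave ratios of 40.2 (11.1 to 332) for Sertoli and 27.4 (7.53 to 227) for stromal cells, the former with an adjusted p of 0.027.

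The stromal CLDN11 was also seen in the share of cells. After thinning to 1000 UMIs, 10.8% (9.00% to 12.9%) and 2.27% (1.75% to 2.89%) of stromal cells of baboon 1 and baboon 2 held a CLDN11 UMI, and 7.59% (6.85% to 8.39%) and 12.4% (11.6% to 13.2%) of those of rhesus 1 and rhesus 2. The shares of Sertoli cells were 6.45%, 4.83%, 5.28% and 24.7% in the same animals. In endothelial cells, 0 of 125 and 0 of 117 baboon cells and 0 of 36 and 1.63% of 492 rhesus cells held one. Free RNA in droplets without a cell is a source of UMIs in all classes, and near-empty droplets held CLDN11 at 32.5 to 73.3 CPM in the baboon libraries and at 54.1 to 185 CPM in the rhesus libraries. Stromal CLDN11 was above the droplets of its own library in 1A (106 against 73.3 CPM), 1B (105 against 60.9) and rhesus 1 (80.8 against 54.1). It was below them, within their counting interval, in baboon 2 (24.4 against 32.5 CPM), 2A (136 against 155) and 2B (164 against 185). From markers of other classes, free RNA was estimated at 4.24% to 8.96% of the stromal UMIs in the baboon and at 8.22% to 23.2% in the rhesus monkey. The class rule leaves out cells with many markers of another list, which can lower this estimate, so it is no strict upper limit. With the estimate subtracted, stromal CLDN11 remained at 109, 110 and 24.1 CPM in the baboon libraries and at 88.9, 135 and 163 CPM in the rhesus libraries, while stromal CLDN3 fell to between 0 and 2.10 CPM in the animals. The part of free RNA in stromal CLDN11 was not tested. CLDN11 and CLDN3 UMIs had a ratio of 0.148 to 1.72 in near-empty droplets and of 0.397 to 1.30 in Sertoli cells, but of 25.8, 18.5 and 3.72 in stromal cells of the baboon libraries and of 5.17, 16.9 and 22.6 in those of the rhesus libraries.

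**Figure D2:**
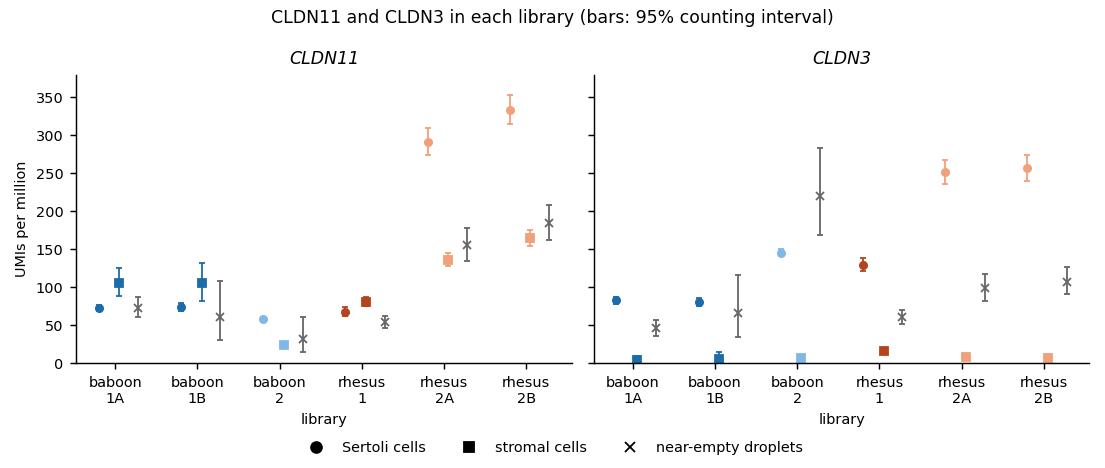
Level of CLDN11 and CLDN3 (CPM) in Sertoli cells, stromal cells and near-empty droplets of each of the 6 libraries, with exact 95% Poisson intervals. CLDN3 was low in stromal cells of all 6 libraries, whereas stromal CLDN11 stood between 24.4 CPM in baboon 2 and 164 CPM in a library of rhesus 2.

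Stromal cells of a species fell into clusters that followed the animal, and CLDN11 differed between these clusters. It stood at 103 CPM in the 1535 stromal cells of the cluster held mostly by baboon 1 and at 25.2 CPM in the 3072 of that of baboon 2. In the rhesus monkey it stood at 81.8 CPM in the cluster of rhesus 1, and at 146 and 176 CPM in those of rhesus 2. Animal, age and, in the baboon, chemistry cannot be told apart in these values.

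CLDN5, the claudin of endothelial tight junctions, was almost confined to endothelial cells among the 4 classes, and of the tested members it had the largest difference from the other classes in both species. It lies at chr16:30812179-30814534 in Panubis1.0 and at chr10:33122881-33125241 in Mmul_10. It stood at 898 and 1010 CPM in endothelial cells of the baboons and at 841 and 1272 CPM in those of the rhesus monkeys. In Sertoli cells it stood at 0.629 and 0.706 CPM in the baboons and 0.921 and 4.86 CPM in the rhesus monkeys, in stromal cells at 1.04, 3.20, 3.43 and 6.54 CPM, and in germ cells at 0, 2.89, 6.61 and 6.21 CPM. The endothelial values lay above all others without overlap in every animal. The difference between endothelial cells and the mean of the other 3 classes was 9.62 ± 0.37 in the baboon (adjusted p = 1.4e-06) and 7.98 ± 0.41 in the rhesus monkey (adjusted p = 2.3e-06). In the baboon CLDN5 passed the filter through endothelial cells alone, so its adjusted p adds no support beyond the levels. After thinning, 47.2% (38.2% to 56.3%) and 61.5% (52.1% to 70.4%) of baboon endothelial cells and 50.0% (32.9% to 67.1%) and 59.6% (55.1% to 63.9%) of rhesus endothelial cells held a CLDN5 UMI, against at most 2.15% of any other class. Near-empty droplets held CLDN5 at 6.69 to 41.5 CPM. In the baboon the small difference between Sertoli and stromal cells passed the test at -1.93 ± 0.54 (adjusted p = 0.030), but it rested on 42 Sertoli and 21 stromal UMIs and was lost when cells were taken by the UMI cutoff alone (adjusted p = 0.91).

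CLDN1, a claudin of many epithelia including the epidermis, was scarce. It lies at chr2:186342189-186359268 in Panubis1.0 and at chr2:7536511-7551873 in Mmul_10. It stood at 5.59 and 3.71 CPM in Sertoli cells of the baboons and at 12.5 and 5.73 CPM in their stromal cells. In the rhesus monkeys it stood at 0.395 and 0.417 CPM in Sertoli cells, on 3 UMIs each, and at 2.78 and 2.16 CPM in stromal cells. Stromal cells were the highest class in all 4 animals, although the interval separated them from the next class only in baboon 1. Baboon germ cells held no CLDN1 UMI. With 3 UMIs over both animals taken as the floor, Sertoli cells were 3.05-fold and stromal cells 4.93-fold higher, with the counting error of the higher class left out.

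OCLN, the transmembrane protein occludin of the tight junction strand, was scarce too. It lies at chr5:64208845-64269744 in Panubis1.0 and at chr6:68047516-68107491 in Mmul_10. Baboon Sertoli cells held 49 and 88 UMIs, or 1.71 (1.27 to 2.26) and 2.59 (2.08 to 3.19) CPM, endothelial cells 1.68 and 7.77 CPM and germ cells 9.34 and 5.77 CPM. No OCLN UMI was found in stromal cells of either baboon. With 3 UMIs taken as the stromal floor, Sertoli cells were 5.73-fold, endothelial cells 12.7-fold and germ cells 19.6-fold higher. These ratios leave out the counting error of the higher class, which held only 6 UMIs in endothelial and 15 in germ cells. The difference between Sertoli and stromal cells passed the test (adjusted p = 0.012), while Sertoli cells differed from germ cells by -1.32 ± 0.64 (adjusted p = 0.13) and from endothelial cells by -1.17 ± 0.77 (adjusted p = 0.34). In the rhesus monkeys OCLN had 13 UMIs over the 4 classes, of which 5 lay in germ cells, at 2.83 and 4.14 CPM, and the other values were at or below 0.490 CPM. Rhesus OCLN did not pass the filter, so a difference between Sertoli cells, with 4 UMIs, and stromal cells, with 3, was not tested.

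TJP1, the ZO-1 scaffold that ties claudins and occludin to the actin cytoskeleton, was found in all 4 classes and lowest in stromal cells. It lies at chr7:155188491-155459550 in Panubis1.0 and at chr7:7536941-7809930 in Mmul_10, where its longest transcript has 30 exons. Endothelial cells held 461 and 783 CPM in the baboons and 349 and 373 CPM in the rhesus monkeys. Sertoli cells held 225, 411, 107 and 133 CPM and germ cells 193, 323, 134 and 155 CPM in the same order, against 32.3, 65.9, 22.2 and 22.6 CPM in stromal cells. Endothelial cells were highest and stromal cells lowest in each of the 4 animals, and over animals the stromal values lay below those of the other 3 classes without overlap. Sertoli exceeded stromal cells by 2.59 ± 0.44 in the baboon (adjusted p = 0.0027) and by 2.32 ± 0.30 in the rhesus monkey (adjusted p = 0.0010). Sertoli cells were lower than endothelial cells by -1.61 ± 0.29 in the rhesus monkey (adjusted p = 0.0047). In the baboon Sertoli and endothelial cells differed by -0.997 ± 0.41, which missed the threshold (adjusted p = 0.12) without the animal as a block and passed it with the block (-1.01, adjusted p = 1.3e-04). Against germ cells, the baboon Sertoli value was higher by 0.78 ± 0.41 (adjusted p = 0.15), with the block adjusted p = 7.2e-04, and the rhesus difference was 0.02 ± 0.29 (adjusted p = 0.96), with a sign that changed with the scaling.

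F11R, the junctional adhesion molecule JAM-A, had endothelial cells first and stromal cells last in all 4 animals, as TJP1 did. It lies at chr1:131403362-131425601 in Panubis1.0 and at chr1:89925676-89948411 in Mmul_10. Endothelial cells held 140 and 140 CPM in the baboons and 71.9 (38.3 to 123) and 212 (193 to 233) CPM in the rhesus monkeys. Sertoli cells held 39.5, 24.1, 13.4 and 41.8 CPM, germ cells 12.5, 13.5, 7.55 and 8.28 CPM, and stromal cells 2.08, 2.19, 2.03 and 2.31 CPM. The values of the 4 classes did not overlap between animals of a species, but germ cells held only 26 (baboon) and 12 (rhesus monkey) F11R UMIs. The counting intervals of Sertoli and germ cells met in baboon 2 and rhesus 1, and those of germ and stromal cells in rhesus 2. Endothelial cells exceeded the mean of the other 3 by 4.02 ± 0.26 in the baboon (adjusted p = 1.5e-05) and by 4.41 ± 0.40 in the rhesus monkey (adjusted p = 4.7e-05), and Sertoli exceeded stromal cells by 3.83 ± 0.40 (adjusted p = 3.3e-04) and 3.45 ± 0.55 (adjusted p = 0.0029). Sertoli cells also exceeded germ cells, by 1.80 ± 0.36 in the baboon (adjusted p = 0.0039) and by 1.98 ± 0.64 in the rhesus monkey (adjusted p = 0.039). The last call was lost under 6 alternatives, with adjusted p between 0.054 and 0.083, among them leaving out either library of rhesus 2 (adjusted p = 0.056 and 0.058).

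GJA1, which encodes connexin 43, the chief gap junction protein of the adult Sertoli cell, was shared by Sertoli and endothelial cells in the baboons and rhesus 1. It lies at chr6:141752031-141765675 in Panubis1.0 and at chr4:24941961-24960480 in Mmul_10. Sertoli cells held 75.5 (72.4 to 78.8) and 52.8 (50.4 to 55.3) CPM in the baboons and 41.4 (37.0 to 46.3) and 8.61 (6.60 to 11.04) CPM in the rhesus monkeys. Endothelial cells held 40.4 (25.9 to 60.1), 66.8 (48.4 to 90.0), 60.9 (30.4 to 109) and 67.7 (56.9 to 79.9) CPM. Stromal cells held 4.17, 2.70, 4.50 and 1.69 CPM and germ cells 1.04, 1.92, 1.89 and 0 CPM. Sertoli and endothelial values of the baboons overlapped, whereas the rhesus Sertoli values lay below both endothelial values and above both stromal values. Near-empty droplets held GJA1 at 39.7 to 49.8 CPM in the baboon libraries and at 21.0 CPM in that of rhesus 1, below the Sertoli cells of the same library. In libraries 2A and 2B of rhesus 2, Sertoli cells held 8.42 and 8.81 CPM and droplets 8.30 and 9.27 CPM. The part of free RNA in Sertoli GJA1 was not tested.

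Sertoli exceeded stromal cells in GJA1 by 4.25 ± 0.43 in the baboon (adjusted p = 2.9e-04) and by 3.09 ± 0.83 in the rhesus monkey (adjusted p = 0.031). Rhesus 2 alone gave 2.06, with no test, and with unsupervised clusters as classes the rhesus call was lost (adjusted p = 0.078). Germ cells held 3 GJA1 UMIs (baboon) and 2 (rhesus monkey), which gave ratios for Sertoli cells of 42.2 (14.4 to 205) and 19.6 (5.40 to 163), with adjusted p of 1.4e-04 and 0.021. In rhesus 2 the Sertoli level was 8.61 CPM and the 37 germ cells held no GJA1 UMI, where 3 UMIs would give 6.21 CPM, so the rhesus ratio rests on rhesus 1. Between Sertoli and endothelial cells the difference was 0.26 ± 0.36 in the baboon (adjusted p = 0.68). In the rhesus monkey it was -1.22 ± 0.80 (adjusted p = 0.36), and with the animal as a block it passed the test at -2.03 (adjusted p = 0.0094).

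GJA4, the arterial connexin 37, which also joins oocytes to granulosa cells in the ovary, was highest in endothelial cells of the 4 classes. It lies at chr1:32977478-32980196 in Panubis1.0 and at chr1:189838571-189841328 in Mmul_10. Endothelial cells held 185 (152 to 223) and 233 (197 to 274) CPM in the baboons and 33.2 (12.2 to 72.3) and 63.7 (53.3 to 75.7) CPM in the rhesus monkeys, the third value on 6 UMIs. Sertoli cells held 3.77, 3.33, 2.24 and 10.3 CPM, stromal cells 1.04, 2.02, 0.643 and 1.69 CPM, and germ cells 6.23, 4.81, 17.9 and 2.07 CPM. The endothelial values overlapped no other class, although in rhesus 1 the interval met that of the germ cells. Endothelial cells exceeded the mean of the other 3 by 6.18 ± 0.23 in the baboon (adjusted p = 1.1e-06) and by 3.68 ± 0.59 in the rhesus monkey (adjusted p = 0.0024). Baboon GJA4 passed the filter through endothelial cells alone, so its adjusted p adds no support beyond the levels. Sertoli and stromal cells differed by 0.99 ± 0.36 in the baboon (adjusted p = 0.078) and by 2.16 ± 0.81 in the rhesus monkey (adjusted p = 0.10, and 0.021 with the animal as a block).

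Cells of other types carried GJA4 too. Peritubular myoid and pericyte cells, chosen by contractile and pericyte markers and outside the 4 classes, held GJA4 at 263 (184 to 364) and 367 (266 to 495) CPM in the baboons, on 77 and 38 cells, and at 103 and 141 CPM in the rhesus monkeys, on 29 and 131 cells. In each animal that was above the endothelial value, but the counting intervals of myoid and endothelial cells were apart only in rhesus 2. The myoid value of rhesus 1 rested on 5 UMIs. GJA1 stood at 87.1 and 69.4 CPM in 230 and 80 Leydig cells of the rhesus monkeys, while baboon myoid cells held at most 1 GJA1 UMI per animal.

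**Figure D3:**
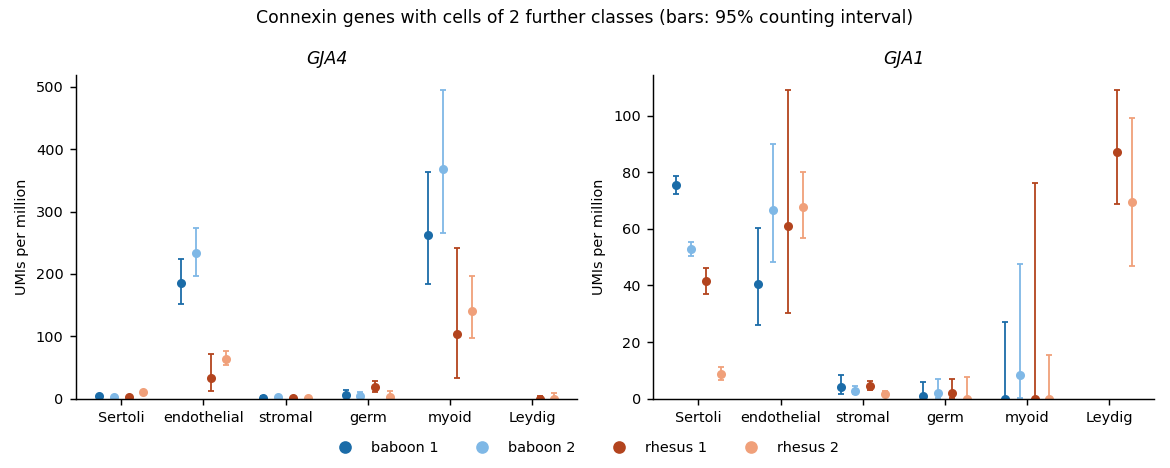
Level of GJA4 and GJA1 (CPM) in the 4 classes and in myoid cells of both species and Leydig cells of the rhesus monkey, per animal, with exact 95% Poisson intervals. Levels of 0 UMIs are drawn at 0. GJA4 in myoid cells stood above that in endothelial cells of the same animal in all 4 animals, with intervals that were apart only in rhesus 2.

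The counts of members called are given beside the share of all tested genes called in the same contrast. Between Sertoli and endothelial cells, 5 of the 8 tested members passed the test in the baboon, where 25.0% of all tested genes did, and 6 of 7 in the rhesus monkey, where 14.7% did. In both species CLDN3 and CLDN11 were higher in Sertoli cells, and CLDN5, F11R and GJA4 were higher in endothelial cells. Between Sertoli and stromal cells 6 of 8 passed in the baboon (26.7% of all genes) and 4 of 7 in the rhesus monkey (15.5%), and CLDN3, TJP1, F11R and GJA1 were higher in Sertoli cells in both. With unsupervised clusters as classes, 2 members passed in the baboon, and CLDN3 and TJP1 no longer did (adjusted p = 0.27 and 0.13). Between Sertoli and germ cells 4 of 8 passed (49.3% of all genes) and 4 of 7 (30.9%), namely CLDN3, CLDN11, F11R and GJA1 in both species, each higher in Sertoli cells, and the baboon share lay near that of all genes. No member was lower in Sertoli than in germ cells by edgeR, nor at an unadjusted p under 0.05 (0 members) or by DESeq2 (0 members), where 24.3% of all baboon and 16.4% of all rhesus genes were. Scaling by library sizes alone moved the median of all genes in this contrast by -0.51 (baboon) and -0.27 (rhesus monkey), and the share of called genes that were higher in Sertoli cells from 50.8% to 32.7% and from 46.8% to 34.1%. Between endothelial cells and the mean of the other 3, 6 of 8 passed in the baboon (23.7% of all genes, with 15.5% higher and 8.19% lower in endothelial cells) and all 7 in the rhesus monkey (15.1%, with 10.2% higher and 4.86% lower). CLDN5, TJP1, F11R, GJA1 and GJA4 were higher in endothelial cells in both species and CLDN3 was lower, by -3.69 ± 0.84 (adjusted p = 0.014) and -2.19 ± 0.60 (adjusted p = 0.035). These calls of CLDN3 were lost without library 1A of baboon 1 (adjusted p = 0.052) and without library 2B of rhesus 2 (adjusted p = 0.060). The mean includes Sertoli cells, where CLDN3 was high, and below them the counting intervals of neighbouring classes overlapped in every animal. CLDN3 is therefore not read as lower in endothelial than in stromal or germ cells. CLDN11 was lower in rhesus endothelial cells by -2.39 ± 0.58 (adjusted p = 0.020), and in the baboon it missed the threshold (adjusted p = 0.056) and passed it with the animal as a block (-4.37, adjusted p = 0.0016). OCLN in this baboon contrast had an adjusted p of 0.056 without and 0.048 with the block, on 6 endothelial UMIs and against a mean that includes stromal cells with none, and in baboon 1 its endothelial level lay below that of germ cells, so it is not read as higher in endothelial cells. The contrasts share the Sertoli and endothelial sums, so they are not independent of each other. The test missed many strong differences: of 200 genes simulated with a log2 change of 2, it found 51.5% to 68.5% in the 3 baboon contrasts with Sertoli cells and 19.5% to 49.5% in the rhesus ones. Genes with very low expected counts were among the 200, and all were simulated with 1 common spread. The parts of low counts, small sums and 2 animals a class in these shares cannot be told apart.

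**Figure D4:**
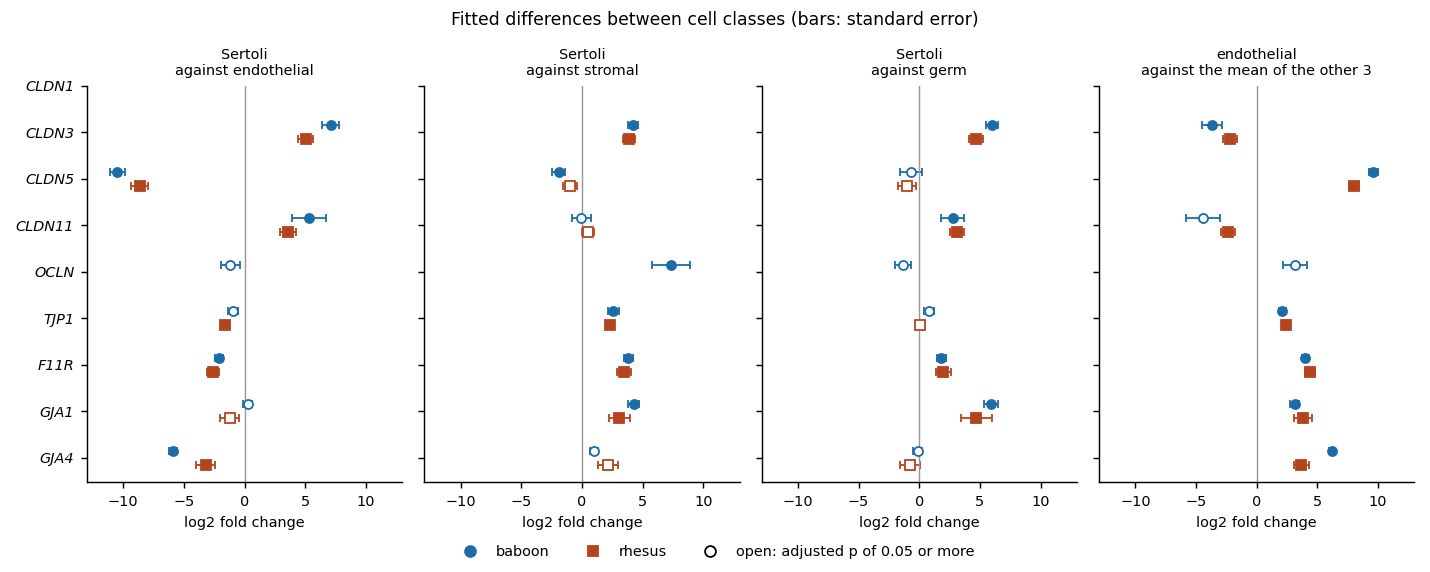
Log2 fold change ± SE of each tested member in the 4 contrasts, for baboon and rhesus monkey, with filled points for adjusted p under 0.05. Between Sertoli and endothelial cells CLDN5 and GJA4 lay farthest to the endothelial side and CLDN3 farthest to the Sertoli side, and CLDN11 lay within 1 SE of 0 or just beyond it between Sertoli and stromal cells.

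Sertoli cells of an animal were not uniform in these genes. Among clusters built without any junction gene, those mostly of baboon 1 held 8709 and 2256 Sertoli cells, 19 and 35 of them from baboon 2. In these TJP1 stood at 250 and 95.1 CPM, GJA1 at 86.3 and 19.5 CPM and F11R at 43.7 and 17.5 CPM. CLDN3, at 86.8 and 61.5 CPM, and CLDN11, at 77.9 and 50.1 CPM, differed less between the same clusters. The Sertoli cells of rhesus 1 fell into 2364 cells with TJP1 at 33.5 CPM and GJA1 at 25.3 CPM and 932 cells with TJP1 at 194 CPM and GJA1 at 61.2 CPM. Those of rhesus 2 fell into 1531 and 2029 cells with TJP1 at 47.0 and 178 CPM and F11R at 23.5 and 52.4 CPM, while CLDN11 stood at 284 and 333 CPM. In each of these 3 pairs the cluster with more TJP1 also held more GJA1 and F11R and had the higher median UMIs per cell (2199 against 1877, 2803 against 1512, and 1898 against 1312), and the part of depth in the difference was not tested. SOX9, a Sertoli marker used for the classes, stood at 441 against 250, 600 against 156 and 1052 against 485 CPM in the same pairs. AMH, another such marker, stood at 7620 against 4379, 6957 against 6629 and 7880 against 7354 CPM, so it differed little in the rhesus pairs. KRT19, which was not a marker, went the other way in the baboon pair, at 34.9 against 40.1 CPM, and had at most 5 UMIs per cluster in the rhesus pairs. TJP1 stood at 416 CPM in a cluster of 3385 Sertoli cells mostly of baboon 2, and at 373 CPM in 277 cells of baboon 2 that clustered with stromal cells and had a median of 8953 UMIs.

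**Figure D5:**
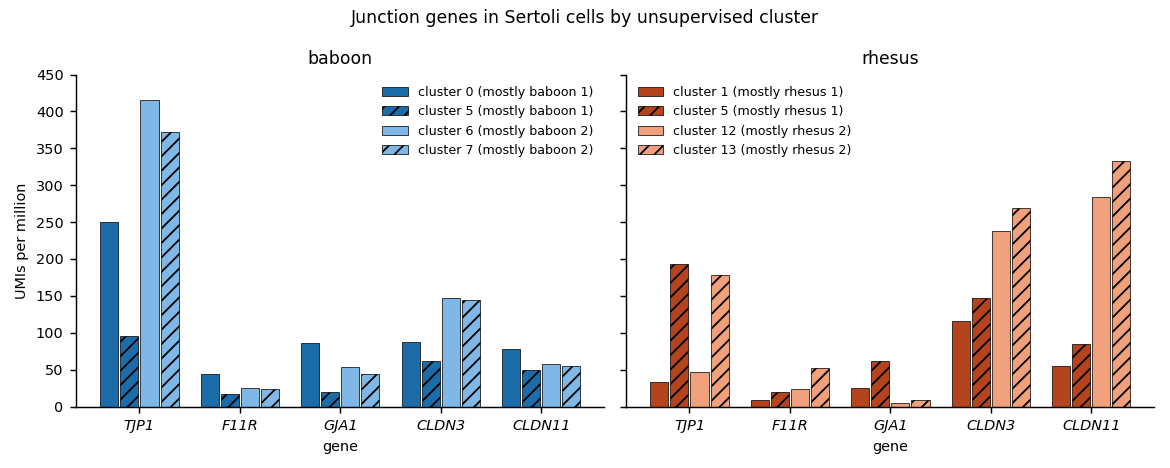
Level of TJP1, F11R, GJA1, CLDN3 and CLDN11 (CPM) in the clusters of Sertoli cells of each species, drawn as bars without intervals. In the clusters mostly of rhesus 1, TJP1 stood at 33.5 and 194 CPM, while CLDN3 stood at 116 and 148 CPM.

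Other genes of the same junctions were read from 3 lists. Of 49 further tight junction genes, 25 were tested in the baboon, of which 8 were higher and 7 lower in Sertoli than in endothelial cells, and 6 higher and 4 lower in Sertoli than in stromal cells (11.5% and 13.5%, and 12.7% and 14.0%, of all genes). In the rhesus monkey 21 were tested, with 2 higher and 3 lower in the first contrast and 4 higher and 1 lower in the second (6.62% and 8.11%, and 7.84% and 7.70%, of all genes). Their median log2 fold change against stromal cells was 0.69 (baboon) and -0.02 (rhesus monkey), against 0.06 and 0.04 over all genes. ESAM, an adhesion molecule of endothelial junctions, stood at 389 and 462 CPM in baboon and 470 and 463 CPM in rhesus endothelial cells and was lower in Sertoli cells by -10.02 ± 0.69 (adjusted p = 3.5e-05) and -8.20 ± 0.88 (adjusted p = 2.8e-04). Baboon ESAM passed the filter through endothelial cells alone, so its adjusted p adds no support beyond the levels. In the baboon CGN, the cytoplasmic protein cingulin that binds ZO-1, stood at 50.7 and 66.2 CPM in Sertoli cells and at most 7.27 CPM in the others, 3.86 ± 0.49 above stromal cells (adjusted p = 7.1e-04). Baboon CGN passed the filter through Sertoli cells alone, so its adjusted p adds no support beyond the levels either. LSR, the angulin of tricellular junctions, exceeded stromal cells by 3.98 ± 0.31 in baboon Sertoli cells (adjusted p = 1.6e-04), and baboon germ cells held it as well, at 185 and 129 CPM against 356 and 362 CPM in Sertoli cells. JAM2, a relative of F11R, exceeded germ cells in Sertoli cells by 3.47 ± 0.25 in the baboon (adjusted p = 6.7e-05) and 3.42 ± 0.43 in the rhesus monkey (adjusted p = 9.0e-04). Endothelial cells held more JAM2 than Sertoli cells in the baboons, at 286 and 291 against 119 and 150 CPM, and less in the rhesus monkeys, at 221 and 162 against 243 and 256 CPM. The rhesus difference in JAM2 between these classes was not called. CXADR, a virus receptor of epithelial junctions, exceeded stromal cells in Sertoli cells by 3.61 ± 0.46 (adjusted p = 7.4e-04) and 3.00 ± 0.84 (adjusted p = 0.041). Its level in baboon germ cells, 78.9 and 52.9 CPM, was above the 26.4 and 24.9 CPM of Sertoli cells. In the other direction, PARD6G was lower in Sertoli than in stromal cells of the baboon by -3.96 ± 0.58 (adjusted p = 0.0013). It had 128 UMIs over the 4 classes. MAGI3 was lower in Sertoli than in stromal cells of the rhesus monkey by -2.31 ± 0.53 (adjusted p = 0.015).

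Among the claudins and connexins that are not members, CLDN4, CLDN12 and CLDN15 in the baboon and GJB1 in the rhesus monkey reached 100 UMIs over the 4 classes. CLDN12 stood at 13.2 and 9.04 CPM and CLDN15 at 10.9 and 14.1 CPM in baboon Sertoli cells, and at 18.2 and 13.1 CPM and 7.29 and 14.0 CPM in stromal cells, so these did not separate the classes. CLDN4 stood at 1.64 and 2.77 CPM in baboon Sertoli cells and at or below 0.505 CPM elsewhere. CLDN10, a claudin of paracellular ion channels, stood at 20.8 and 17.3 CPM in baboon germ cells on 38 UMIs, had 2 UMIs in Sertoli cells and none in the other classes. GJB1, the connexin 32 of liver and Schwann cells, stood at 3.42 and 13.3 CPM in rhesus Sertoli cells and at 0.857 CPM or less in the other classes. GJC1, the connexin 45 of cardiac and smooth muscle, stood at 19.7 and 22.1 CPM in germ cells of the baboons, at 18.5 and 14.0 CPM in their endothelial cells and had 8 and 4 UMIs in their Sertoli cells, a difference between Sertoli and germ cells of -6.14 ± 0.62 (adjusted p = 1.9e-04). In the rhesus monkeys it stood at 6.61 and 31.0 CPM in germ cells, on 7 and 15 UMIs, and at 2.16 CPM or less in the others.

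The third list held 18 genes of adherens junctions, desmosomes and the ectoplasmic specialization, the actin-based junction of Sertoli cells. Of 13 tested in the baboon, 8 were higher and 0 lower in Sertoli than in stromal cells, and 10 higher and 1 lower than in germ cells. Of 14 tested in the rhesus monkey, 8 were higher and 0 lower than in stromal cells and 10 higher and 0 lower than in germ cells. Against endothelial cells 4 were higher and 3 lower in Sertoli cells in each species, and 7 were higher and 3 lower in endothelial cells than in the mean of the other 3. Over all tested genes, 11.5% were higher and 13.5% lower in baboon Sertoli than endothelial cells, and 6.62% and 8.11% in the rhesus monkey. Against the mean of the other 3, 15.5% were higher and 8.19% lower in baboon endothelial cells, and 10.2% and 4.86% in rhesus ones. Of all genes, 12.7% and 7.84% were called higher in Sertoli than in stromal cells of the baboon and rhesus monkey, and 25.1% and 14.5% higher than in germ cells. The counts of 0 came from edgeR, and at an unadjusted p under 0.05 they were 0 and 0 against stromal and 1 against rhesus germ cells, while DESeq2 gave 0 in all 3. The median log2 fold change against stromal cells was 1.76 (baboon) and 1.73 (rhesus monkey), where that of all genes was 0.06 and 0.04. CDH2, the N-cadherin that joins Sertoli and germ cells, stood at 137 and 147 CPM in baboon and 103 and 177 CPM in rhesus Sertoli cells, and exceeded stromal cells by 4.50 ± 0.60 (adjusted p = 8.4e-04) and 4.23 ± 0.36 (adjusted p = 2.9e-04), while baboon germ cells held 133 and 120 CPM. ESPN, the actin-bundling protein espin of the ectoplasmic specialization, exceeded stromal cells by 4.35 ± 0.52 (adjusted p = 5.6e-04) and 4.08 ± 0.45 (adjusted p = 5.8e-04). DSP, the desmosomal plaque protein desmoplakin, did so by 4.77 ± 0.59 (adjusted p = 6.4e-04) and 4.24 ± 0.62 (adjusted p = 0.0025). The desmosomal cadherin DSG2 was the gene lower in Sertoli than in germ cells of the baboon, at 0.419 and 0.235 against 38.4 and 39.5 CPM, and it passed the filter through germ cells alone.

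The genes whose log2 CPM over the 8 sums of a species followed a member most closely were ranked for 3 members, among 12740 baboon and 12209 rhesus genes. For CLDN11 they were TPMT (Pearson r = 0.979), LOC110741431 (0.975) and FIBIN (0.971) in the baboon and MAP1B (0.957), KCNG1 (0.955) and DKK3 (0.952) in the rhesus monkey. For CLDN5 they were AQP1 (0.992), MFNG (0.988) and APLNR (0.982) in the baboon and PXN (0.992), FLI1 (0.9898) and PPP2R5A (0.9895) in the rhesus monkey. For GJA1 they were ANXA3 (0.992), CDK2 (0.9895) and GALNT18 (0.982) and, in the rhesus monkey, NAA10 (0.9905), ST3GAL2 (0.981) and GABARAPL1 (0.975). The points of these correlations share animals and libraries, and no gene was among the 3 nearest of the same member in both species.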

How the data were processed

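Single-cell RNA-seq count matrices of 6 testis libraries from 4 animals were used. The authors made the deposited counts, whole UMIs per gene and barcode, with Cell Ranger 3.1.0 on Panubis1.0 (baboon) and Mmul_10 (rhesus), and every barcode was deposited, also those without a cell. The submitters' processing notes also name Seurat 3.2.3. No normalized values were used.

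Cells were barcodes above a UMI cutoff (a 10th of the 99th percentile of the top 5000 barcodes) or, from 500 UMIs, with a profile that differed from near-empty droplets (10000 simulations, adjusted p 0.01), each with at least 200 genes. A cell joined a class with at least 3 UMIs from 2 markers of its list, a level above 0.25 of the class reference and a margin of 0.5 over other lists. The rule was written with the data in view. Doublets were marked by simulated doublets in 4.45% to 8.94% of the cells of a library and kept.

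UMIs were summed per animal and class and tested with edgeR 4.0.16 (quasi-likelihood, TMM, filterByExpr, R 4.3.3), all 4 classes in 1 fit, with Benjamini-Hochberg adjusted p at a threshold of 0.05. Shares of cells used cells thinned to 1000 UMIs (exact Clopper-Pearson intervals), shallower cells left out. A level of 0 was bounded with 3 UMIs, and a ratio to it took the higher level without its counting error. The test was run on simulated counts first. Alternatives were DESeq2 1.42.0, library sizes alone, no filter, the animal as a block, libraries as samples, the UMI cutoff alone, doublets left out, a stricter rule, unsupervised clusters, libraries left out, thinning to 500 UMIs and subtraction of free RNA. The same animal supplies all 4 classes, so animals pair the sums: the deviations of an animal correlated between classes by 0.173 to 0.538 in the baboon and 0.0640 to 0.555 in the rhesus monkey. The members, the marker and junction lists and the motifs were chosen with earlier results of these data known. Named junction genes were drawn from those called with both animals changed the same way, at most 5 with the largest change per list and contrast, and claudins or connexins with at least 100 UMIs. Not every gene that met this was named. For CLDN11, CLDN5 and GJA1 the 3 most correlated genes outside the lists were named. A gene that this rule would name is not reported here. Coordinates came from the RefSeq annotation of each build.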

Additional observations from a re-analysis of the deposited data

Results flagged for a closer look

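The levels listed here lie outside the 4 classes compared above, in cells that met the marker lists of peritubular myoid cells and pericytes or of Leydig cells, and each lies above the level that a count of 0 allows. GJA4 stood at 263 and 367 CPM in the myoid cells of baboon 1 and baboon 2 and at 103 and 141 CPM in those of rhesus 1 and rhesus 2. TJP1 stood at 73.0 and 128 CPM in the myoid cells of the baboons and at 18.3 and 34.7 CPM in the Leydig cells of the rhesus monkeys. In the same Leydig cells GJA1 stood at 87.1 and 69.4 CPM and CLDN3 at 52.7 and 32.4 CPM. CLDN11 stood there at 8.03 and 23.1 CPM and F11R at 8.03 and 18.5 CPM. In near-empty droplets of the rhesus libraries TJP1 stood at 40.1 to 54.9 CPM, CLDN3 at 60.5 to 108 CPM, CLDN11 at 54.1 to 185 CPM and F11R at 8.60 to 27.8 CPM. In each animal these 4 genes were lower in Leydig cells than in its droplets. The share of free RNA was not estimated for Leydig cells, so its part in these 4 levels was not tested and they are not read as expression. Myoid TJP1 of the baboons, on 10 and 15 UMIs, also lay below the droplets of the same animal, which held 131 to 188 CPM. It is not read as expression either. GJA1 in Leydig cells was above its droplet levels, 8.30 to 21.0 CPM. No member moved in opposite directions in all animals of the baboon and the rhesus monkey in any of the 4 contrasts.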

How the results depend on the processing

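Over the members' log2 fold changes in the 4 contrasts and all alternatives, 633 values kept their direction and side of the threshold, 23 gained a call, 21 lost one, 16 moved and 11 changed sign. The sign changes were CLDN11 between Sertoli and stromal cells of the baboon, which became 0.0389 with library sizes alone, 0.0551 without a filter and 0.29 with the replicate block by animal and ran from -0.633 to 0.0376 with 1 library left out, GJA4 between Sertoli and germ cells of the baboon (0.28 without a filter), and TJP1 between Sertoli and germ cells of the rhesus monkey (-0.18 with DESeq2, -0.27 with library sizes alone, -0.20 without a filter, -0.0484 with libraries as samples, and from -0.115 to -3.04e-05 with 1 library left out). None of these was called. The sign also differed between single animals for some members that were not called. Between Sertoli and germ cells, GJA4 was -2.49 in rhesus 1 and 2.36 in rhesus 2, and CLDN5 was 3.74 in baboon 1 and -1.52 in baboon 2.

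Unsupervised clusters lowered the members called from 6 to 2 between Sertoli and stromal cells of the baboon and from 4 to 2 between Sertoli and germ cells of the rhesus monkey. In the baboon, CLDN3, TJP1, OCLN and CLDN5 lost their calls against stromal cells (adjusted p = 0.27, 0.13, 0.18 and 0.069), and 277 cells that met the Sertoli rule lay in the stromal cluster of baboon 2. The number of members whose thinned share had the same highest class in both animals rose from 4 to 7 in the rhesus monkey with thinning to 500 UMIs. With 1 library left out, members called ranged from 5 to 5, 5 to 5, 4 to 4 and 5 to 6 in the baboon contrasts (Sertoli against endothelial, stromal and germ, and endothelial against the other 3), and from 6 to 6, 4 to 4, 3 to 4 and 6 to 7 in the rhesus ones. Without either library of baboon 1, OCLN was filtered out, which gave the 5 against stromal cells. Endothelial CLDN3 lost its call without library 1A of baboon 1 (adjusted p = 0.052), with DESeq2 (0.056) and with clusters (0.53) in the baboon, and without library 2B of rhesus 2 (0.060) in the rhesus monkey. Without baboon 2, or without rhesus 1, 1 animal a class was left and no test was made.

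The replicate block raised the genes called from 3216 to 4938 (Sertoli against endothelial) and from 3431 to 5920 (against stromal) in the baboon, and from 1816 to 2871 and 1917 to 3559 in the rhesus monkey. It changed no other member call than those given with the results. Libraries as samples, which count libraries of 1 animal as replicates, raised the rhesus counts to 3787, 4058 and, for endothelial cells against the other 3, from 1860 to 4020, and the UMI cutoff and the clusters lowered the baboon count against stromal cells to 2209 and 1834. CLDN1 and OCLN were scarce, and depth limits the zeros of endothelial cells of rhesus 1 and germ cells of rhesus 2.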
